A study of Equus caballus with 6 samples.

Results

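Steroid synthesis enzymes and cholesterol carriers of the testis were followed in stallions 12 h after dexamethasone. The 10 genes were STAR, TSPO, CYP11A1, FDX1, CYP17A1, CYB5A, HSD3B2, HSD17B3, SRD5A1 and CYP19A1. Their probes were those whose platform annotation gives exactly 1 of these symbols, which made 14 probes among 53423 gene probes on each array. Of the latter 23472 carry exactly 1 gene symbol, for 18278 genes in all. STAR was read by 3 probes, CYP19A1 and CYB5A by 2 each and the remaining 7 genes by 1 each. All 10 symbols also stand in the horse gene table of the TB-T2T assembly, where HSD3B1 is a synonym of HSD3B2.

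The series holds 6 adult stallions that had been kept at the clinic for 10 days. Dexamethasone, a synthetic glucocorticoid, was given intravenously at 0.1 mg/kg to 3 of them, and the other 3 received saline. No stallion is described as carrying any further treatment, and breed and age in years are not among the labels. RNA of whole parenchyma, which holds tubules with germ and Sertoli cells as well as the interstitial cells between them, was hybridised for each stallion to 1 CodeLink array, a one-colour platform with probes designed for human transcripts.

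Testosterone is made in Leydig cells from cholesterol, which is carried to the inner mitochondrial membrane and cleaved there to pregnenolone by CYP11A1. In the endoplasmic reticulum 3-beta-hydroxysteroid dehydrogenase and CYP17A1 act on pregnenolone in either order, and 17-beta-hydroxysteroid dehydrogenase then yields the active androgen. Aromatase turns androgens into oestrogens, and the stallion testis is known for making large amounts of them. The title of the series places a fall of steroidogenic genes after dexamethasone in the foreground, so the comparison here asks whether these genes differed between treated and saline stallions.

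Between 22690 and 25537 gene probes were above background per array, meaning that the scanner's quality flag was not L (near background) and did not mark the spot as missing (M) or as C, I or P. Pairs of normalised arrays correlated at 0.982 to 0.989 across probes. Slide numbers form 2 runs, called slide run 1 (4 arrays, replicates 1 and 2 of each group) and slide run 2 (2 arrays, replicate 3 of each group). A family of 30 repeated control probes read 8.86 in the dexamethasone and 8.47 in the control stallions (mean log2 intensity before normalisation between arrays), and all 30 were higher in the former. The other 2 families, of 32 probes each, differed by 0.00 with 16 higher and by 0.05 with 30 higher. The part of the first family in the differences below was not tested. Among Leydig cell markers, 8 of 10 genes were above background on at least 3 arrays. LHCGR, the receptor for luteinising hormone, was above background in all 6 stallions, while NR5A1, the orphan receptor that drives steroidogenic promoters, was on none. Spermatid genes were above background on at least 3 arrays for 12 of 15 genes with a probe and Sertoli genes for 10 of 14, but not SOX9, TNP1 or PRM2, each on 0 arrays. For macrophages this was 2 of 7. Of the adrenal cortex markers, MC2R and MRAP were above background on all 6 arrays and CYP21A2 on none. In whole tissue, fewer cells of a type and less RNA per cell cannot be told apart.

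With these human probes 5 of the 10 steroid synthesis genes gave a usable signal. Of the 14 probes, 7 were above background on at least 3 arrays with at least 2 values per group, a share of 50% against 46% of all gene probes. Above background on all 6 arrays were 2 of the 14 (35.1% of all gene probes) and on none 4 of the 14 (44.5%). These 7 probes read STAR (3 probes), CYP11A1, CYP17A1, CYP19A1 and HSD3B2. The other 7 probes, of HSD17B3, CYB5A, FDX1, TSPO and SRD5A1 and the second one of CYP19A1, were above background in 5 of their 42 spots. All 5 were in control replicates 1 and 2 and none in control replicate 3. Over all gene probes, 24755, 22690 and 23583 were above background in dexamethasone replicates 1, 2 and 3. In control replicates 1, 2 and 3 these were 25537, 24635 and 23809. A probe that stays near background on a human array does not show that the horse gene is silent, since its match to the horse transcript was not examined. No member spot was saturated.

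**Figure D1:**
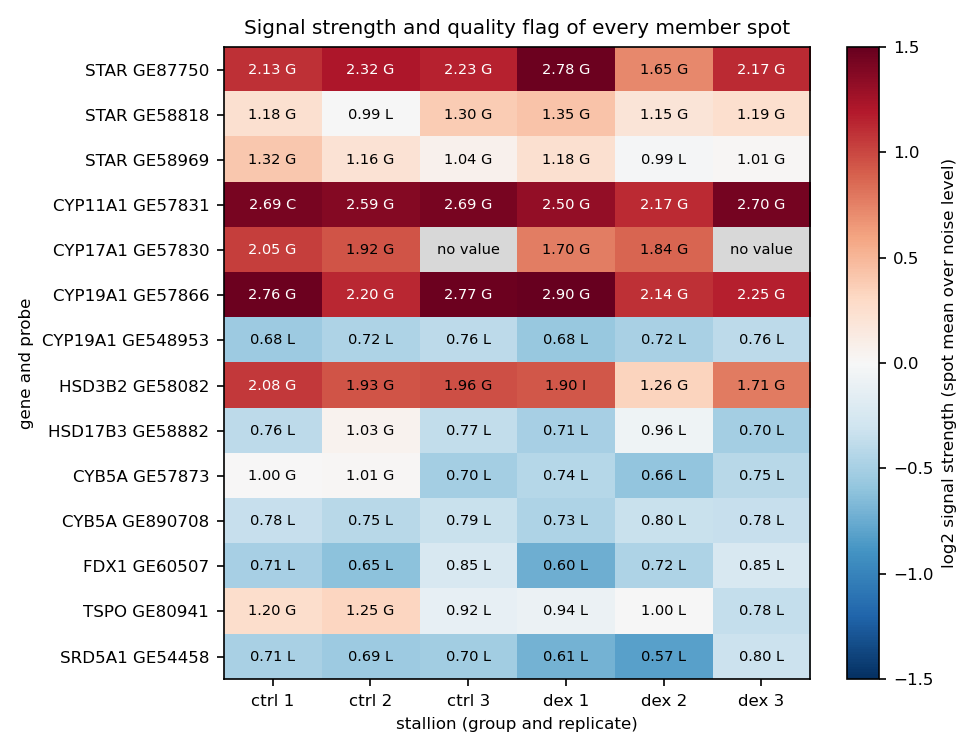
Signal strength (spot mean divided by the spot's noise level) and quality flag of each of the 14 member probes in each stallion, with colour on a log2 scale centred on a strength of 1. STAR probe GE87750, CYP11A1, CYP17A1, CYP19A1 probe GE57866 and HSD3B2 exceed 1 wherever they have a value, whereas FDX1, SRD5A1, CYB5A probe GE890708 and CYP19A1 probe GE548953 stay below 1 in all 6 stallions.

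STAR, the carrier that delivers cholesterol to the inner mitochondrial membrane, is the acutely regulated step of steroid synthesis. Levels are given as log2 of the background-corrected, quantile normalised intensity, on which 1 unit is a doubling, and they are compared only within a probe. Probe GE87750 read 7.76, 7.33 and 7.57 in dexamethasone replicates 1, 2 and 3 and 7.45, 7.60 and 7.58 in control replicates 1, 2 and 3. The treated stallions thus held both the highest and the lowest value, and the groups overlapped. The spot itself lay between 2.80 and 4.33 times its local background. Dexamethasone minus control was 0.01 ± 0.11 (SE, 95% interval -0.25 to 0.27), with limma's adjusted p = 0.999. These p-values set the group difference against the spread within groups, which limma moderates with that of all probes tested. With 1 array per stallion, spread between animals and between arrays cannot be told apart.

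The other STAR probes carry the same transcript annotation as each other and were dimmer. Their spots lay at 1.59 to 2.16 times local background for GE58818 and 1.65 to 2.20 times for GE58969. Probe GE58818 read 6.71, 6.74 and 6.80 after dexamethasone and 6.59, 6.36 and 6.73 after saline, so that only control replicate 3 reached into the treated range. Its difference was 0.19 ± 0.10 (SE, interval -0.04 to 0.43). Probe GE58969 read 6.64, 6.48 and 6.55 against 6.71, 6.72 and 6.59, a difference of -0.12 ± 0.09 (SE, interval -0.31 to 0.08). These STAR probes therefore lay on opposite sides of 0, each in all 17 alternative settings that tested it. Taken per stallion, GE58818 minus GE58969 was 0.20 ± 0.11 after dexamethasone and -0.11 ± 0.25 after saline (SD, n = 3 each). The difference of 0.31 had an exact two-sided permutation p of 0.2, or 0.4 after adjustment over the 3 pairs of STAR probes, and 3 stallions against 3 cannot give a p below 0.1. With plain background subtraction GE58818 differed by 0.43 and GE58969 by -0.26. Without control replicate 2, whose spot was near background, GE58818 differed by 0.09. Without dexamethasone replicate 2, whose GE58969 spot was near background, GE58969 differed by -0.08.

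TSPO, the translocator protein of the outer mitochondrial membrane, was near background in 4 of 6 stallions. Its probe GE80941 read 6.32, 6.40 and 6.13 after dexamethasone and 6.53, 6.72 and 6.29 after saline. Control replicates 1 and 2 were above background and stood highest, while none of the 3 treated stallions was above background and control replicate 3 lay within their range. Above background in 2 or 3 controls and in no treated stallion describes 0.848% of all gene probes, against 0.309% for the mirror pattern. Each treated value under the lowest signal above background on its array was raised to that signal. The mean of all 3 control values was then 1.13-fold that of the treated stallions. Control replicate 3 was itself near background, so this ratio is not a lower bound, and it has no test of its own. Without the filter on dim probes the difference was -0.23 ± 0.12 (SE, interval -0.50 to 0.04), with limma's adjusted p = 0.999. It was -0.13 without control replicate 2 and -0.62 with background subtraction. In slide run 1 it was -0.26 and in slide run 2 -0.16.

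CYP11A1, the side-chain cleavage enzyme that commits cholesterol to steroid synthesis, gave one of the clear signals, at 4.07 to 4.62 times local background in the spots used. Its probe GE57831 read 7.69, 7.98 and 7.87 after dexamethasone and 7.72 and 7.80 in control replicates 2 and 3. Both control values lay inside the treated range. The spot of control replicate 1 carried the flag C and was left out. Kept, it read 7.89, also inside that range, and the difference went from 0.08 ± 0.11 to 0.04 ± 0.10 (SE). The differences were 0.11 in slide run 1 and 0.07 in slide run 2. FDX1, the ferredoxin that passes electrons to CYP11A1, was read by probe GE60507 at 5.84, 6.04 and 6.30 after dexamethasone and 5.96, 5.81 and 6.14 after saline. All 6 of its spots were near background, so these values bear no comparison.

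CYP17A1 carries out the 17-alpha-hydroxylase and lyase reactions that lead from progestagens to androgens. Its probe GE57830 read 7.27 and 7.45 in dexamethasone replicates 1 and 2 and 7.36 and 7.36 in control replicates 1 and 2. Both controls lay between the treated values, and the spot of replicate 3 was missing in each group, so slide run 2 gave no value. The difference was 0.00 ± 0.11 (SE, interval -0.26 to 0.27). A further probe is annotated to CYP17A1 together with ATP1B1, was not above background in any stallion and is not counted among the members.

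CYB5A, cytochrome b5, promotes the lyase step of CYP17A1. Probe GE57873 read 5.99, 5.82 and 6.05 after dexamethasone and 6.33, 6.41 and 5.97 after saline, with control replicates 1 and 2 above background and the other 4 stallions not. It showed the same arrangement as TSPO, with the same control stallions highest and control replicate 3 inside the treated range. On the linear scale the spot stood 31.6 and 32.6 intensity units over local background in those controls and between 3.00 and 12.7 in the other 4. No higher level in the controls can be stated. The treated spots were near background, and the control mean does not exceed the mean of the lowest signals above background on the treated arrays. The differences that follow are therefore between spot values, not between measured levels. In the fit without the filter on dim probes the difference was -0.28 ± 0.12 (SE, interval -0.56 to -0.01). Of the 14 member probes it was the only one in that fit with an unadjusted limma p under 0.05, as 3.92% of all probes had, and its adjusted p was 0.999. In slide run 1 the difference was -0.47 and in slide run 2 it was 0.08. It was -0.20 without control replicate 2, -0.55 with an offset of 16 in the background correction and -1.39 with background subtraction. The second CYB5A probe, GE890708, was near background in all 6 stallions, at 5.98 to 6.13.

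**Figure D2:**
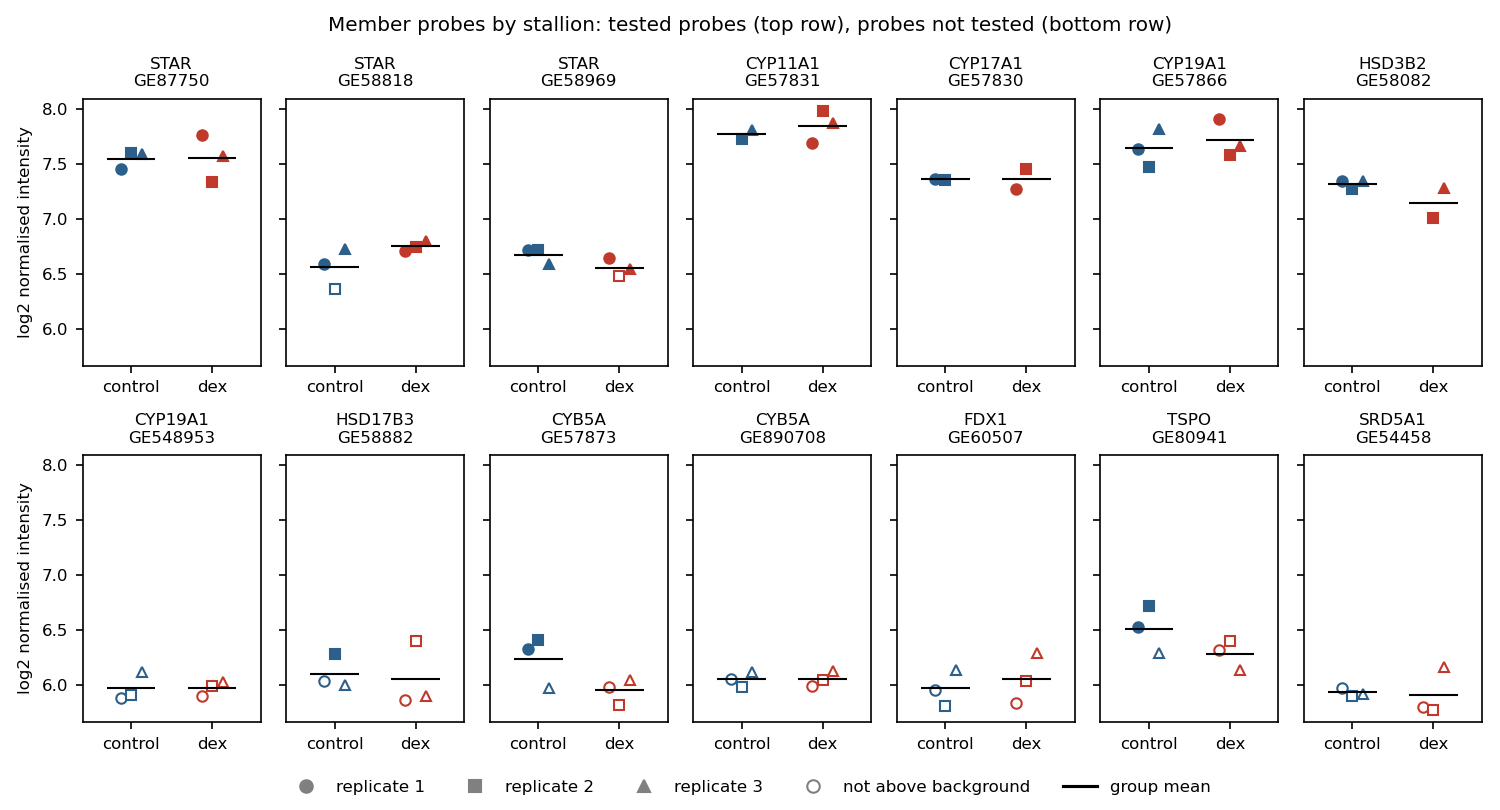
Log2 normalised intensity of each member probe by stallion, tested probes above and probes too dim to test below, with open symbols for spots not above background and a bar for each group mean. Treated and control values overlap in all 14 panels, and in the panels of TSPO and CYB5A probe GE57873 control replicates 1 and 2 are the only filled symbols.

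HSD3B2 stands for the 3-beta-hydroxysteroid dehydrogenase that turns pregnenolone into progesterone. Probe GE58082 read 7.01 and 7.28 in dexamethasone replicates 2 and 3 and 7.34, 7.27 and 7.34 in the controls. The treated pair was split, with one value below every control and one among them. The spot of dexamethasone replicate 1, flagged I, was left out, and when kept it read 7.34, level with the controls. The difference was then -0.11 ± 0.10 (SE), against -0.17 ± 0.11 (SE, interval -0.42 to 0.07) without it. In slide run 1 it was -0.30, in slide run 2 -0.06. The probe shared by HSD3B2 and HSD3B1 was near background in all 6 stallions.

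HSD17B3, the testicular enzyme that makes testosterone from androstenedione, was read by probe GE58882. It was above background in control replicate 2 alone, at 6.28, although dexamethasone replicate 2 read 6.40 with the flag L. The other 4 stallions lay between 5.87 and 6.04. SRD5A1, a 5-alpha-reductase that makes dihydrotestosterone, stayed near background in every stallion, at 5.78 to 6.16 with probe GE54458. With so few spots above background, the probes of HSD17B3 and SRD5A1 bear no comparison between the groups.

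CYP19A1, the aromatase, had a clear probe and a dim one. GE57866 read 7.90, 7.58 and 7.66 after dexamethasone and 7.64, 7.47 and 7.81 after saline. Dexamethasone replicate 1 was highest and control replicate 2 lowest, but the remaining 4 stallions alternated between the groups. The difference was 0.07 ± 0.12 (SE, interval -0.18 to 0.33), at 0.19 in slide run 1 and -0.15 in slide run 2. It was -0.02 without dexamethasone replicate 1 and -0.01 without control replicate 2. The second probe, GE548953, is annotated to another sequence record and was near background in all 6 stallions, at 5.89 to 6.12.

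**Figure D3:**
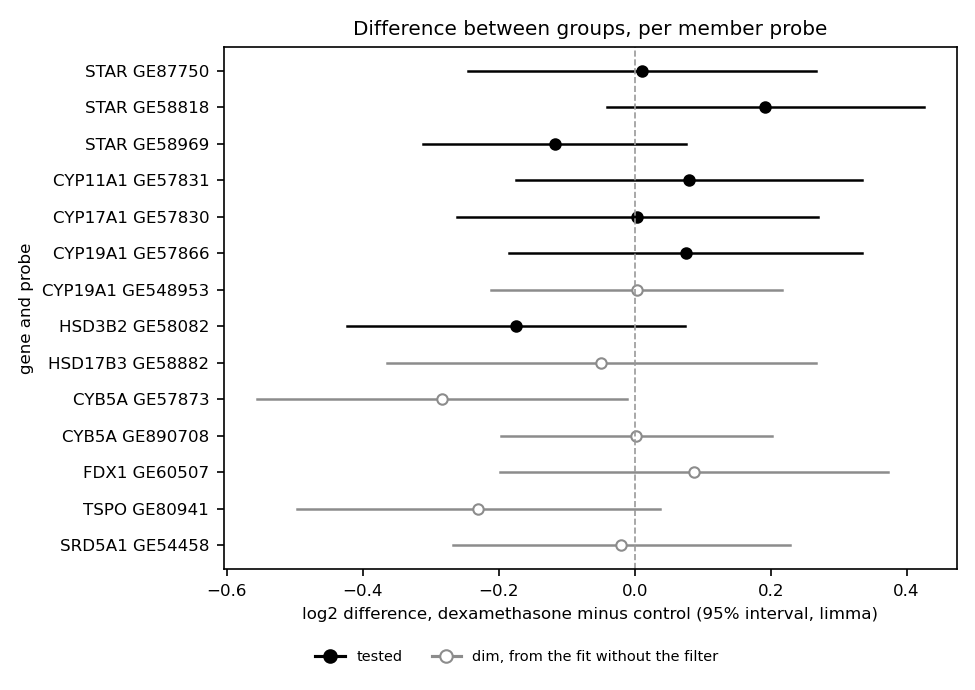
Difference of group means, dexamethasone minus control, with limma's 95% interval for each of the 14 member probes, filled for the 7 tested probes and open for the 7 dim ones, whose values come from the fit without the filter. All 7 tested intervals include 0, and of the dim probes only that of CYB5A probe GE57873 does not, from -0.56 to -0.01.

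Across the 7 tested probes 5 lay higher and 2 lower in the treated stallions, with a median log2 difference of 0.01, against -0.01 over all 24590 probes tested. None passed limma's adjusted p of 0.05, a call that 0.00407% of all probes received, and each had an adjusted p of 0.999. At an unadjusted p under 0.05 there were also 0 of the 7, where 3.29% of all probes passed. Nor did the groups separate for any of the 7, against 9.27% of all probes tested, or for any of the 7 dim probes, against 10% without the filter. The median over the members was 0.02 in slide run 1 and, over the 6 probes with values, -0.03 in slide run 2. Median scaling between arrays, which moved the median of all probes to -0.08, gave a median of -0.06 for the members.

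How far a change could have gone unseen is given by the intervals. On the fold scale they ran from 0.746 for the lower end of HSD3B2 to 1.34 for the upper end of STAR probe GE58818. The background correction adds an offset of 50 intensity units, which compresses differences of spots that stand, as these do, at most 192 units over background. The intervals therefore hold for the normalised intensities and may be too narrow for the transcripts. In simulated arrays with 200 changed probes among 24590, 53.7% of 1.5-fold and 97% of 2-fold changes on the normalised scale passed the adjusted test. The simulated noise was drawn from the variances that limma had fitted. In the measured data only 1 of 24590 probes passed, which makes the adjusted cutoff stricter there. These shares therefore do not say how often a change of a member would have been called. The standard errors of the 7 probes had a median of 0.11, against 0.10 over all probes.

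The SD between stallions, pooled over the groups, ran from 0.08 for STAR probe GE58969 to 0.17 for CYP19A1 probe GE57866 with a median of 0.14, against 0.12 over all probes tested. Of the 7 probes, 3 had their lowest and 2 their highest value in dexamethasone replicate 2. Dexamethasone replicate 1 held the highest value for 2 probes and the lowest for 2 others, so that no stallion was high or low throughout. Among the 4 tested probes with values on all 6 arrays, 6 pairs were compared across stallions. STAR probes GE58818 and GE58969 ran opposite to each other, with Pearson's r = -0.77 (exact permutation p = 0.0625, adjusted over the 6 pairs 0.375) and Spearman's rho = -0.94 (exact permutation p = 0.0167, adjusted 0.1). Leaving out the 2 stallions farthest from the median of GE58818 gave r = -0.49, and r within the groups was -0.58. STAR probe GE87750 gave r = -0.09 with GE58818 and r = 0.41 with GE58969 (exact permutation p = 0.844 and 0.429, adjusted 0.844 and 0.644), and the latter became -0.42 without the 2 farthest stallions. No correlation was computed within the slide runs, which hold 4 and 2 stallions.

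Other genes of the pathway were taken from 4 lists. Of 34 further steroid enzymes 25 had a probe of their own and 7 were tested, 3 higher and 4 lower, with a median of -0.01. STS, the steroid sulfatase, differed by -0.28 ± 0.16 (SE), with -0.57 in slide run 1 and 0.29 in slide run 2. AKR1C4, an aldo-keto reductase whose near-identical relatives may share its probe, differed by -0.17 ± 0.11. CYP7B1, an oxysterol hydroxylase, read 8.48 ± 0.09 against 8.36 ± 0.01 (SD, n = 3 each), and its groups did not overlap. SRD5A2, the other classical 5-alpha-reductase, was above background in 0 stallions.

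Of 9 redox partners, which are electron donors beside FDX1 and CYB5A, 4 were tested by their brightest probe, 2 higher and 2 lower, with CYB5R1 at 0.11 ± 0.09 and CYB5B at -0.02 ± 0.08 (SE). H6PD supplies NADPH inside the endoplasmic reticulum, and its probes disagreed. GE81376 was above background in 3 of 3 controls and 0 of 3 treated stallions and differed by -0.28 ± 0.08 (SE, limma's adjusted p = 0.999). The control mean was 1.19-fold that of the treated stallions once their values under the lowest signal above background were raised to it. This ratio is not a lower bound, since spots flagged L can read above that signal. The unadjusted limma p of GE81376 was under 0.05, as for 3.29% of all probes tested. This probe met the filter of 3 arrays only through the controls, so that p is no support for a difference. Probe GE85489 differed by 0.10 ± 0.10, and the third, GE484174, was above background in 1 stallion.

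Among 31 cholesterol carriers and partners of TSPO, 14 were tested, 5 higher and 9 lower, with a median of -0.03. STARD3, a late endosomal relative of STAR, differed by -0.06 ± 0.08 (SE). OSBP, an oxysterol-binding protein that exchanges sterols between membranes, read 6.89 ± 0.05 against 6.71 ± 0.05 (SD, n = 3 each). Its groups did not overlap. SLC25A4, the adenine nucleotide translocator, differed by 0.18 ± 0.11 and SCARB1, the receptor for high-density lipoprotein, by -0.17 ± 0.10, with 0.06 in slide run 2 (SE). A second SLC25A4 probe differed by -0.06 ± 0.11.

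Regulators of these genes were tested for 21 of 28, 10 higher and 11 lower, with a median of -0.03. LHCGR differed by -0.08 ± 0.09, CREM, a transcription factor of the cAMP pathway, by 0.19 ± 0.11, NR4A3, an orphan nuclear receptor, by 0.13 ± 0.09 and DLK1 by 0.15 ± 0.12 (SE). For SREBF2, the activator of sterol synthesis genes, probe GE86441 differed by -0.23 ± 0.09 (SE) with an unadjusted limma p under 0.05 and an adjusted p of 0.999, while its other probes differed by -0.01 and -0.04. Over the 4 lists, 46 genes were tested by their brightest probe, and 0 passed limma's unadjusted p of 0.05. Of the 46 genes 4, or 8.70%, had separate groups, against the 9.27% of all probes tested. Beside CYP7B1 and OSBP these were TSPOAP1, a partner of TSPO, at 0.13 ± 0.09, and NR4A1, an orphan nuclear receptor, at -0.06 ± 0.08 (SE). Among the 8 tested Leydig cell markers, which include STAR, CYP11A1, CYP17A1 and HSD3B2, 4 were higher and 4 lower with a median of -0.04. An unadjusted limma p under 0.05 was found for 2 of the 8, INSL3 and GSTA3, both lower with groups that did not overlap. Over all probes tested 3.29% had such a p and 9.27% had separate groups. The marker list was chosen with earlier results of these data known, so these counts are a description only. INSL3, a peptide hormone, differed by -1.21 ± 0.23 with 1 probe and by -0.52 ± 0.22 with the other, whose groups overlapped (SE, limma's adjusted p = 0.999 for both). GSTA3, a glutathione transferase that also isomerises steroid intermediates, differed by -0.66 ± 0.16 (SE, limma's adjusted p = 0.999), and near-identical relatives may share its probe.

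**Figure D4:**
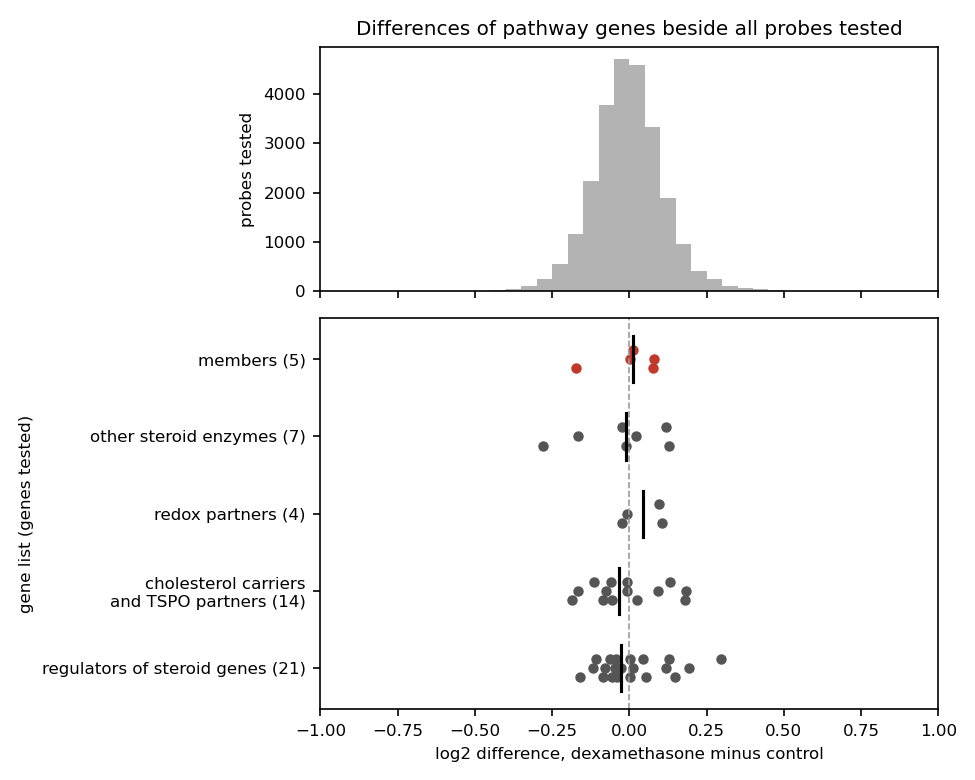
Differences of the brightest tested probe per gene (points) and list medians (black bars) for the 10 steroid synthesis genes, of which 5 were tested, and for 4 further lists, below the histogram of all 24590 probes tested, on a log2 scale. Medians lie between -0.03 and 0.05, and points spread over the range where most probes lie.

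Across other processing and with 1 stallion left out, STAR probe GE58818 had the widest range of the 7 probes, from 0.09 to 0.43. It stayed higher in the treated stallions. HSD3B2 stayed lower in all 15 alternatives that tested it, from -0.30 to -0.11, and CYP11A1 stayed higher in all 15, from 0.01 to 0.16. CYP17A1, CYP19A1 and STAR probe GE87750 changed sign in some. The difference of CYP19A1 in the main setting, 0.07, was nonetheless close to that of CYP11A1, 0.08. The smallest adjusted p of any of the 7 in any alternative was 0.659.

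**Figure D5:**
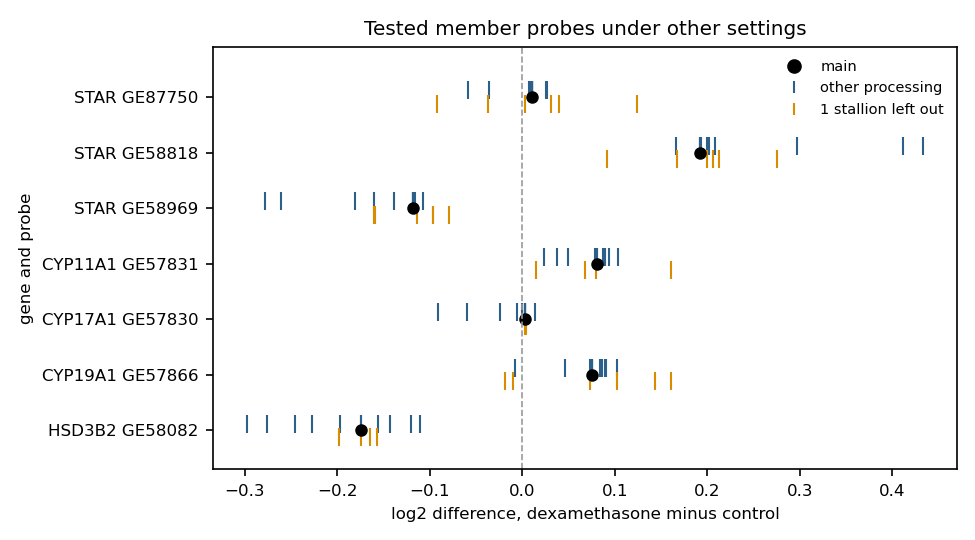
Difference of each tested member probe (black point, log2 scale) beside its values under other processing (upper marks) and with 1 stallion left out (lower marks). HSD3B2 and STAR probe GE58969 stay below 0 and STAR probe GE58818 and CYP11A1 above it, while the other 3 probes cross 0.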

How the data were processed

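The authors deposited 1 scanner file per stallion with spot mean, local background median and a scaled intensity, per the file headers, and a signal strength score that equals spot mean over noise level. By the values, the authors obtained the scaled intensity by subtracting the background and scaling each array by a constant of its own, and the table of the whole series repeats it. Scanner software is not given in the sources used here. Spots flagged M (353 to 610 per array) have no value, and those flagged C, I or P (320 to 1189), whose meaning is not stated, were set to missing. Probe names printed more than once (94 names and 631 blank spots) were taken as controls.

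Limma 3.58.1 under R 4.3.3 was used for normexp correction (offset 50) and quantile normalisation of the intensities, followed by log2. Probes above background on at least 3 arrays with at least 2 values per group were tested with lmFit and eBayes, two-sided. Benjamini-Hochberg adjustment ran over all probes tested. The number of arrays limits precision. Replicate numbers follow the order of samples and pair no stallions, and the labels say that each sample is another stallion. Figures used matplotlib 3.10.9 in Python 3.11.15.

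The 10 genes, the lists and the tests were chosen with earlier results of these data known. Named genes were all members' probes, in each list those with a probe past an unadjusted p of 0.05 and the 3 of smallest p, and 10 fixed genes. Of the latter, SRD5A3 and FDXR have no named probe and HSD3B1 and POR only shared ones. In simulated data, with noise drawn from the variances that limma had fitted, the test recovered 53.7% of 1.5-fold and 97% of 2-fold changes on the normalised scale. The simulation held 200 changed probes, whereas 1 of 24590 passed in the measured data. These shares therefore do not say how often a changed member would have been called.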

Additional observations from a re-analysis of the deposited data

How the results depend on the processing

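No member probe passed an adjusted p in any of the 19 alternatives. Of 113 differences of tested probes under alternatives, 12 changed sign, all of them of CYP17A1, CYP19A1 probe GE57866 or STAR probe GE87750. STAR probe GE87750 differed by -0.059 with median scaling and -0.036 with the authors' scaled intensity. CYP17A1 differed by -0.024 without background correction, -0.091 with median scaling, -0.060 with the authors' values, -0.00028 with flagged spots kept and -0.0059 with array weights. CYP19A1 probe GE57866 differed by -0.0082 with median scaling. Without each stallion in turn the differences ran from -0.093 to 0.12 for STAR probe GE87750 and from -0.019 to 0.16 for CYP19A1 probe GE57866. The members' median was -0.059 with median scaling and ran from -0.056 to 0.12 without each stallion in turn, and the cause was not tested. Past an unadjusted p there was 1 member probe of 14 without the filter, where 7 more are tested and 3.92% of all probes passed. Without each stallion in turn there were 0 to 1. The 1 was STAR probe GE58818 without control replicate 3, a difference of 0.28, where 4.03% of all probes passed. Genes of the other lists past it numbered 0 of 46 in the main setting, where 3.29% of all probes passed. The count was 1, OSBP, in 9 alternatives: background subtraction, no background correction, an offset of 16, cyclic loess, the authors' values, a filter of all 6 arrays, flagged spots kept, trend and robust eBayes, and the mean of a gene's probes. In those 9 alternatives 3.12% to 3.41% of all probes, or of all gene means, passed. The count was 1, HSD17B13, without the filter, where 82 genes were tested, and 2 of 46 with median scaling (AKR1C4 and STARD4). Over all probes 3.92% passed without the filter and 7.31% with median scaling. Without each stallion the count was 0 to 3, beside 2.5% to 4.56% of all probes. With the slide run as a block no call changed. Probes close to background limit what can be seen. No paired analysis was possible because replicate numbers were given here in sample order.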
